A study of Xenopus laevis with 6 samples.

Results

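Ribosome biogenesis genes and other genes of the nucleolus were examined in NICD-injected and untreated explants of the animal pole of the frog Xenopus laevis. They were chosen by symbol from the array's platform annotation, as families and single genes known from rRNA synthesis, rRNA modification and subunit assembly. A family name also takes in relatives described by another role, such as npm2. The rule found 74 genes of the 7531 symbols on the array. Each gene was read from the probe set with the highest mean signal, and each copy of a gene (.L or .S, the homeologs of this species) counted as a gene. All 74 passed the filter on low signals. The symbols name the genes only, and their products were not measured.

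The 2 NICD samples are labelled as explants injected with NICD, the intracellular domain of the Notch receptor, which acts in the nucleus as a transcriptional activator. The 4 untreated samples are labelled as having no treatment, and the series design calls them pooled explants. All 6 were animal pole explants, the upper cells of the blastula, cut out at stage 8 and cultured alone to stage 20. The labels name no control injection, so the effects of NICD and of injecting cannot be told apart. The labels give neither the number of embryos per sample nor separate experiments. The p-values therefore cover only how far these samples differed, which may be technical.

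Ribosomes are built in the nucleolus. RNA polymerase I transcribes a long precursor rRNA there, small nucleolar ribonucleoproteins modify it, and a large set of assembly factors folds and cuts it into the small and the large subunit. Frog embryos carry a large store of ribosomes from the egg, and growing or dividing cells are known for high levels of these factors.

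Signals are MAS5 intensities, scaled by the authors so that the trimmed mean of every array lay at 499 or 500. The median signal of the 74 genes was 1070 and 1080 in the 2 NICD arrays, against 855 to 997 in the untreated arrays. All 7 symbols of the Notch target list used to check the labels were higher in NICD explants (summed signal 26956 to 34762 in NICD and 3222 to 4228 in untreated arrays). Skin cell markers were lower in the same arrays. The summed signal of 10 multiciliated cell symbols was 1340 to 1838 in NICD and 9760 to 12746 in untreated arrays, and that of 7 epidermal symbols 5824 to 14755 and 41096 to 58792. Neural progenitor markers were higher, with 18632 to 19967 in NICD and 1358 to 2042 in untreated arrays for 8 symbols. The hybridization headers place untreated 1, untreated 2 and NICD 1 on 1 day and the others on another, and both NICD arrays in fluidics module 4, where no untreated array was washed, so module cannot be told apart from treatment. For the gapdh control, a gauge of RNA quality, the ratio of 3' over 5' signal was 4.21 in NICD 1 and 2.98 in NICD 2, against 2.7 to 3.54 in the untreated arrays. For the actb control it was 0.151 in NICD 1 and 0.113 in NICD 2, within the untreated range of 0.0918 to 0.199. In every array the 3' signal was the higher for gapdh and the lower for actb, so the actb ratio does not check the gapdh one.

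The comparison of NICD with untreated explants asked which of these genes differed after NICD. Few did. In limma (Benjamini-Hochberg adjusted p under 0.05 over all 10368 probe sets tested), 4 of the 74 genes rose, npm2.L, nob1.S, riok3.S and riok3.L, and none fell. That is 5.41% of the genes, whereas 31.3% of the 5670 tested symbols changed, 16.7% higher and 14.6% lower. Among the tested symbols with a mean signal at or above the median of the 74 genes, 33.1% changed. At an unadjusted p under 0.05 in limma, 9 of the 74 genes were higher and 3 lower, 16.2% in all. Of the tested symbols 42.7% were past it, 23.8% higher and 18.9% lower. The explants are mixtures of cells, so fewer cells of a type and less RNA per cell cannot be told apart.

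The sizes of the differences were also small. Changes are given as NICD minus untreated in units of log2(signal + 32), in which low signals appear less altered than they are. The median change of the 74 genes was 0.06, with quartiles at -0.22 and 0.33, and the full range ran from -0.68 (ddx10.S) to 1.65 (npm2.L). The median over all tested symbols was 0.10, with quartiles at -0.40 and 0.55. The median size of a change, without its sign, was 0.27 for the 74 genes and 0.48 for all tested symbols. A change of at least 2-fold was seen for 3 of the 74 genes (4.05%) and for 22.4% of tested symbols. A p above the threshold does not show that a gene was unaltered, so intervals were used to bound the differences. For 48 of the 74 genes (64.9%) the 95% interval lay within a 2-fold rise and a 2-fold fall, as it did for 43.6% of tested symbols. For 59 genes the interval stayed below a 2-fold rise and for 63 above a 2-fold fall. The matching shares over all tested symbols were not counted.

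**Figure D1:**
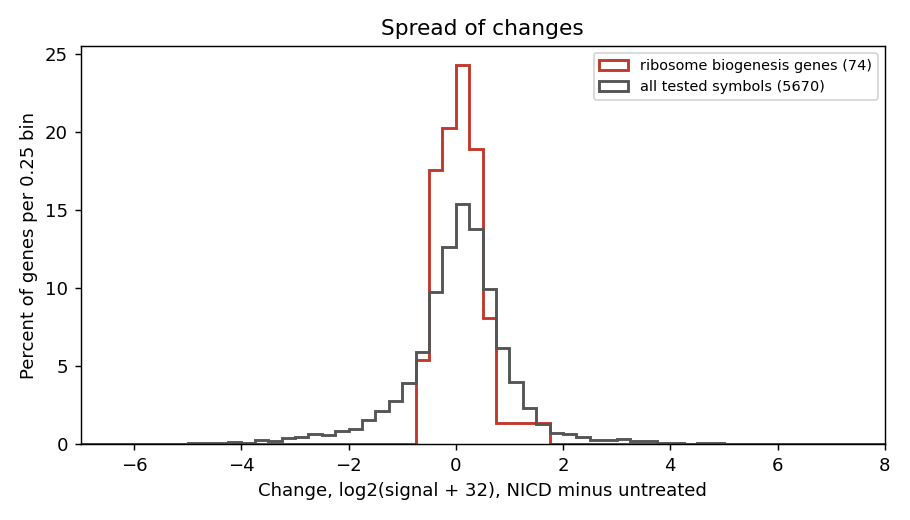
Distribution of the log2 change (x axis, NICD minus untreated) as percent of genes per bin of 0.25 (y axis), for the 74 ribosome biogenesis genes and all 5670 tested symbols. The 74 genes lie between -0.68 and 1.65, while the tested symbols reach -6.21 and 7.59.

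Both NICD arrays lay above all 4 untreated arrays for 15 of the 74 genes and below them for 5, together 27% of the genes. Over all tested symbols this held for 51.5%, with 29% above and 22.5% below. The change was larger than the whole range of the 4 untreated arrays for 12 genes (16.2%), against 43% of tested symbols. The median range among the untreated arrays themselves was 0.65 for the 74 genes and 0.59 for all tested symbols.

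**Figure D2:**
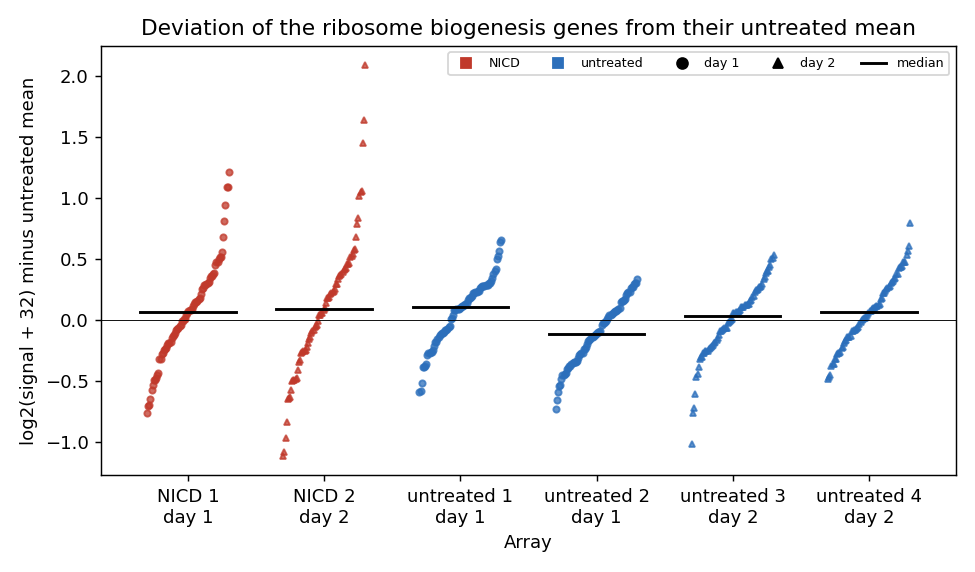
Each point is 1 of the 74 genes, drawn at its log2(signal + 32) minus its mean over the untreated arrays (y axis), sorted within each array (x axis; an untreated array is part of the mean it is set against), with the median as a bar and the day as the marker shape. The medians of all 6 arrays lie between -0.11 (untreated 2) and 0.10 (untreated 1), with 0.06 in NICD 1 and 0.09 in NICD 2.

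The largest rise was that of npm2.L, the gene of nucleoplasmin, a histone chaperone stored in the frog egg that opens sperm chromatin at fertilization. Its signal was 1551 in NICD 1 and 2873 in NICD 2, against 494.2, 565.3, 706.5 and 919.1 in untreated 1 to 4. Both NICD arrays stood above all untreated arrays. The change was 1.65 ± 0.32 (SE), a 3.13-fold rise with an adjusted p of 0.00332 in limma. It was 1.50 on day 1 and 1.79 on day 2.

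The gene nob1.S also rose. In yeast its product is the endonuclease that cuts the last piece from the small subunit rRNA. It gave 1210 and 1735 in NICD explants, against 751.4, 711.5, 491.1 and 541.9 in untreated explants, with no overlap. The change was 1.20 ± 0.26 (SE), or 2.29-fold (adjusted p = 0.00644 in limma), with 0.70 on day 1 and 1.69 on day 2.

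Both copies of riok3 rose. The product is a RIO kinase, which in human cells is found with precursors of the small subunit. The signal of riok3.L was 2582 and 3346 in NICD explants, against 1469, 1786, 1900 and 1316 in untreated explants. That of riok3.S was 294.4 and 445.6 in NICD explants, against 70.1, 94.8, 161.6 and 189.9 in untreated explants. In untreated 1 and untreated 2 the riok3.S signal lay below the low-signal filter of the array (104 and 103). Neither copy showed an overlap of the groups, and riok3.S was higher on day 2 than on day 1 in both groups. The changes were 0.86 ± 0.23 (SE, adjusted p = 0.0182) for riok3.L and 1.36 ± 0.34 (SE, adjusted p = 0.0121) for riok3.S in limma, or 1.82-fold and 2.57-fold. The other RIO kinases did not pass. The changes were 0.25 for riok2.L, 0.19 for riok2.S and -0.37 for riok1.L, with intervals of -0.24 to 0.74, -0.55 to 0.92 and -0.91 to 0.18.

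The calls of these 4 genes depended on NICD 2, which held the higher value for each. For each of them NICD 1 also lay above all 4 untreated arrays. Without NICD 2 none of the 74 genes was called and 16% of tested symbols were. The adjusted p in limma was then 0.0543 for npm2.L, 0.0842 for nob1.S, 0.133 for riok3.S and 0.16 for riok3.L, with changes of 1.21, 0.94, 1.09 and 0.68. Without NICD 1 all 4 were called, joined by npm3.S and polr1f.L as higher and ddx10.S and wdr75.L as lower, while 25.2% of tested symbols were called. With the processing day as a block 6 of the 74 genes were higher and none lower, at a background of 40.2% of tested symbols, 22.1% higher. The added genes were npm3.S and rrp7a.S (adjusted p = 0.0181 and 0.0495 in limma), whereas the 3 genes lower at an unadjusted p under 0.05 stayed above the threshold. The second probe sets of npm3.S and rrp7a.S did not pass with the day block (adjusted p = 0.189 and 0.114 in limma).

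**Figure D3:**
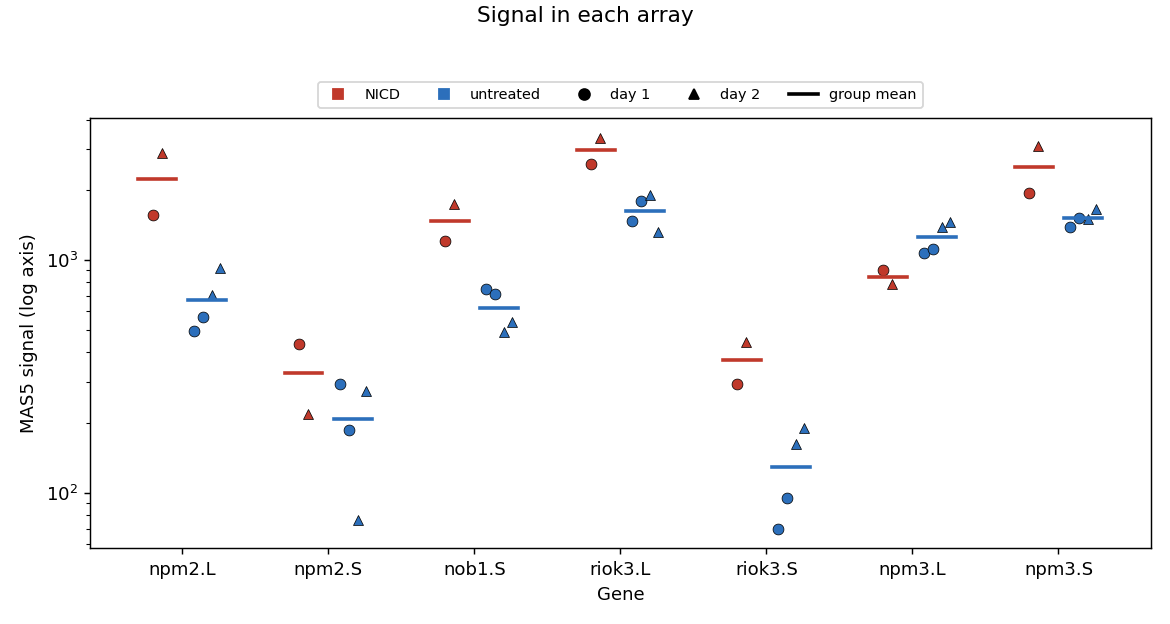
MAS5 signal (y axis, log scale) in every array for npm2, nob1.S, riok3 and npm3, NICD to the left of untreated, with the day as the marker shape and the group mean as a bar. For npm2.L, nob1.S and both riok3 copies the 2 NICD arrays lie above all 4 untreated arrays, and for npm3 the copies lie on opposite sides.

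Among the 6 genes of RNA polymerase I and its partner treacle none passed the test. Against 3198 of 5670 tested symbols (median 0.10), 5 of the 6 changes were positive, with a median of 0.39. The largest was that of polr1f.L, a subunit of the polymerase's stalk, with 391.6 and 746.9 in NICD explants and 379.6, 312.4, 358.8 and 322.2 in untreated explants. NICD 1 lay just above the untreated range and NICD 2 far above it. The change was 0.62 ± 0.27 (SE, adjusted p = 0.11 in limma). Treacle, tcof1.S, a nucleolar cofactor of rRNA transcription, gave 2253 and 2101 in NICD explants, against 1750, 1898, 1391 and 1461 in untreated explants. The groups did not overlap, and the change of 0.43 had an interval of -0.06 to 0.91. The large catalytic subunits polr1a.L (0.04) and polr1b.L (0.36) had intervals of -0.50 to 0.56 and -0.13 to 0.85. The value of the subunit polr1e.L was 0.43, with 0.83 on day 1 and 0.03 on day 2. In the other direction polr1c.L, a subunit shared with RNA polymerase III, gave 1271 and 1546 in NICD explants and 2183, 1566, 1958 and 1749 in untreated explants. Both NICD arrays lay below the untreated range, with a change of -0.39 ± 0.22 (SE, adjusted p = 0.21 in limma).

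None of the 5 core genes of the small nucleolar ribonucleoproteins passed the test, and their median change was 0.10. The methyltransferase fibrillarin, fbl.S, had the largest value. It gave 2981 and 4120 in NICD explants, against 2805, 1755, 2044 and 2743 in untreated explants, a change of 0.61 ± 0.26 (SE, adjusted p = 0.102 in limma). Its other probe sets did not follow. A further fbl.S probe set gave 0.03, and another, of low signal, -0.94 (adjusted p = 0.0449 in limma), with 222.2 and 125.5 in NICD explants and 219.3 to 459.5 in untreated explants. The scaffold proteins of the methylation complexes, nop56.L (0.10) and nop58.S (-0.22), had intervals of -0.40 to 0.59 and -0.69 to 0.24. The signal of nop56.L was 5211 and 4818 in NICD explants, against 6246, 4380, 3990 and 4405 in untreated explants, so the groups overlapped. The pseudouridine synthase dyskerin, dkc1.L, had a value of 0.08 and its small partner nop10.S 0.14, neither past the test. For nop10.S a second probe set gave 0.02. For dkc1.L the 2 further probe sets gave 0.16 and -0.73, and neither passed (adjusted p = 0.63 and 0.108 in limma).

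The small subunit held 36 genes, of which 3 rose (nob1.S and the riok3 copies), none fell and 33 did not pass, with a median change of 0.04. Components of the small subunit processome, the complex that forms on the growing precursor, were split in sign. The partners nol6.L and rrp7a.S, which in yeast form a module together, both lay above the untreated range. The signal of nol6.L was 2115 and 1602 in NICD explants, against 1277, 931.6, 1137 and 1495 in untreated explants. That of rrp7a.S was 1667 and 1691 in NICD explants, against 1322, 1218, 952.9 and 1165 in untreated explants. Their changes were 0.61 and 0.53, with adjusted p = 0.0878 and 0.0935 in limma. The rrp7a.S probe set used carries a suffix for probes shared with other sequences. A second rrp7a.S probe set, without that suffix, gave 0.42 with overlapping groups. The group of factors that joins transcription to processing showed no common direction, with utp15.L at 0.42, utp15.S at -0.27, nol11.S at 0.15, utp4.L at -0.11, wdr43.L at -0.18, wdr43.S at 0.26 and wdr75.L at -0.51, none past the test. Both NICD arrays lay above the untreated range for utp15.L and wdr43.S. Other members with negative values were the helicase ddx10.S (-0.68), utp14a.L (-0.47), nop14.L (-0.42), utp25.L (-0.34) and utp11.L (-0.29). For ddx10.S the lower value rested on NICD 2, with 943 and 527.3 in NICD explants against 933.4, 1169, 1531 and 1044 in untreated explants. It was -0.14 on day 1 and -1.21 on day 2.

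Factors of the late small subunit, which carry it out of the nucleolus into the cytoplasm, also lay on both sides of 0. The export factor rrp12.S gave 2400 and 2326 in NICD explants, against 2103, 1815, 1436 and 1610 in untreated explants. Its change was 0.45 ± 0.22 (SE, adjusted p = 0.153 in limma), and the groups did not overlap. The GTPase-like factor tsr1.L gave 1272 and 1255 in NICD explants, against 2164, 1854, 1936 and 1292 in untreated explants. Both NICD arrays lay below the untreated range, with a change of -0.49 (adjusted p = 0.163 in limma), and a second probe set of tsr1.L gave -0.23 with overlapping groups. The change of ltv1.L was -0.48 and that of bysl.S 0.03, neither past the test.

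**Figure D4:**
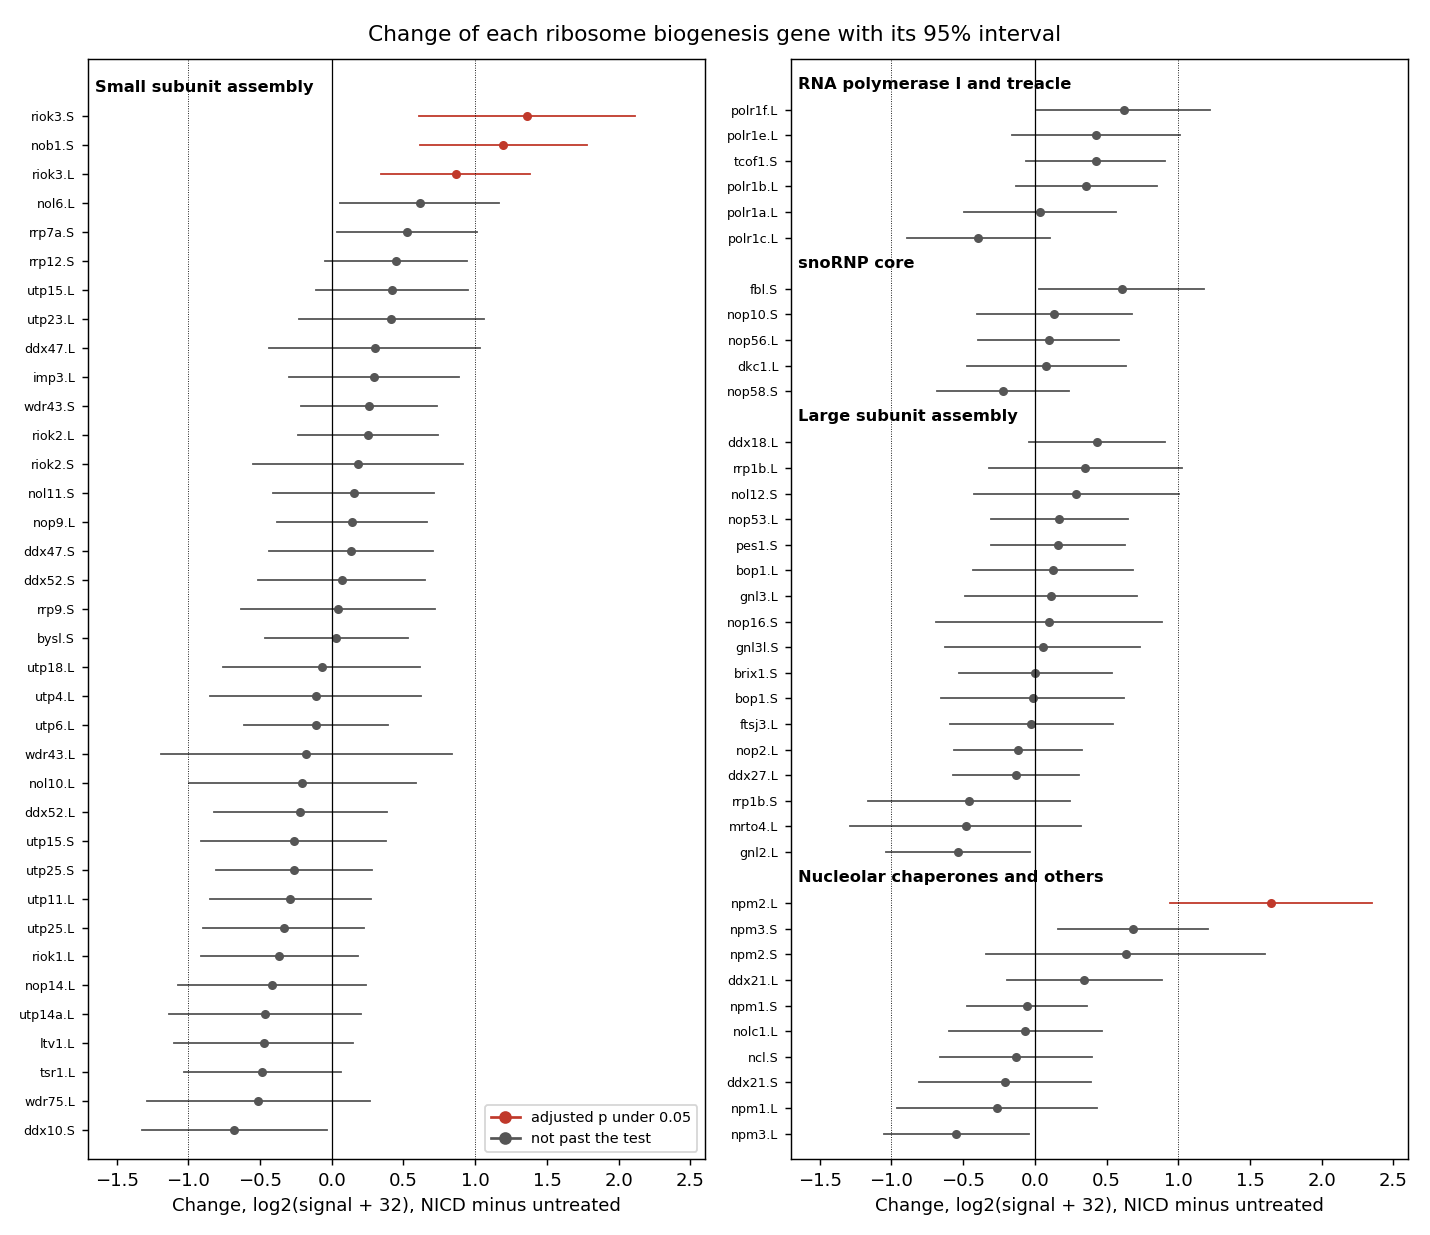
Change of each of the 74 genes (x axis, log2 scale, NICD minus untreated) with its 95% interval, grouped by role down the page, with dotted lines at a 2-fold change. The 4 genes past the test are red, and 48 intervals lie between the dotted lines.

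The 17 genes of large subunit assembly included none past the test, with a median of 0.05 and changes from -0.54 to 0.43. The complex of pes1, bop1 and wdr12 is needed to process the large subunit rRNA, and wdr12 is not among the 74 genes. The values of pes1.S, bop1.L and bop1.S were 0.16, 0.13 and -0.02, and that of a second pes1.S probe set 0.02. The assembly factor brix1.S gave 3263 and 3531 in NICD explants, against 3960, 3978, 2439 and 3436 in untreated explants, a change of 0.002 with an interval of -0.53 to 0.54. The rRNA methyltransferases nop2.L (-0.12) and ftsj3.L (-0.03) and the helicase ddx27.L (-0.13) were likewise bounded within 2-fold.

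At the edges of this group were a GTPase and a helicase. The GTPase gnl2.L gave 341.7 and 320.9 in NICD explants, against 528.4, 393.1, 536.1 and 538.3 in untreated explants. Both NICD arrays lay below the untreated range, and the change was -0.54 ± 0.23 (SE, adjusted p = 0.0974 in limma). The helicase ddx18.L gave 1066 and 1313 in NICD explants, against 923, 792.8, 902 and 857.5 in untreated explants. The change was 0.43 ± 0.21 (SE, adjusted p = 0.151 in limma), without overlap, and the 3 further ddx18.L probe sets gave 0.37, 0.26 and 0.47, each with overlapping groups. The related GTPases gnl3.L, known as nucleostemin and found in stem and dividing cells, and gnl3l.S had values of 0.11 and 0.05, neither past the test. For gnl3.L the signal was 2720 and 2079 in NICD explants, against 2805, 2722, 1752 and 1754 in untreated explants, and the higher values of both groups were those of day 1.

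The 10 genes grouped as nucleolar chaperones and other nucleolar proteins held 1 past the test, npm2.L, and had a median of -0.06. The npm2 copies are in this group by their family name, and the role given above for npm2 is not in ribosome assembly. Nucleophosmin, npm1, is a major chaperone of the nucleolus. The signal of npm1.S was 6445 and 5319 in NICD explants, against 6422, 5429, 6605 and 5955 in untreated explants. The change was -0.06, with an interval of -0.47 to 0.36. The npm1.L probe set, which carries a suffix for probes shared with other sequences, gave 5148 and 7906 in NICD explants, against 5860, 5488, 10350 and 10416 in untreated explants. Its signal went with the day in both groups, at 5670 on day 1 and 10400 on day 2 in untreated explants, and its change was -0.27 (adjusted p = 0.56 in limma). A second npm1.L probe set gave -0.33 and showed the same order of days. The helicase ddx21, which in human cells acts with both RNA polymerase I and II, had values of 0.35 (.L) and -0.21 (.S), neither past the test. The value of the scaffold nolc1.L was -0.07.

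For nucleolin, ncl.S, the probe sets gave different answers. The probe set with the highest mean gave 6183 and 5967 in NICD explants, against 5552, 5232, 8049 and 8434 in untreated explants, a change of -0.13 ± 0.24 (SE, adjusted p = 0.706 in limma). The other ncl.S probe set gave 942.3 and 529.2 in NICD explants, against 1905, 1310, 2244 and 1802 in untreated explants. Both NICD arrays lay below the untreated range there, with a change of -1.30 ± 0.29 (SE, adjusted p = 0.00749 in limma). With the mean over both probe sets ncl.S was called lower (-0.71, adjusted p = 0.0449 in limma). Of the 16 further probe sets of the 74 genes that were tested, 14 had the sign of the probe set used. Of the 16, 2 were called lower (those of ncl.S and fbl.S) and none higher, while 31.6% of all 10368 tested probe sets were called.

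Of the 74 genes, 26 formed 13 pairs of .L and .S copies, and the difference between the copies' changes was tested over 719 such pairs of the whole array, of which 17.1% differed. Among the 13, npm3 passed. With the day as a block utp15 passed too (adjusted p = 0.032, against 0.23 without it, in limma), with a difference of 0.69. The npm3.L signal was 901.1 and 787.3 in NICD explants, against 1071, 1115, 1389 and 1454 in untreated explants. The npm3.S signal was 1937 and 3073 in NICD explants, against 1387, 1517, 1490 and 1647 in untreated explants. The NICD arrays thus lay below the untreated range for one copy and above it for the other. The changes were -0.55 (adjusted p = 0.0933) and 0.68 (adjusted p = 0.0501 in limma), neither past the test alone, and the difference of .L minus .S was -1.23 ± 0.29 (SE, adjusted p = 0.0222 in limma). A second npm3.S probe set gave 0.34 with overlapping groups. The call of a difference for npm3 ended without NICD 2 and without untreated 3. The copies of a gene are close in sequence, so a probe set named for one can also detect the other.

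The next differences in size were those of npm2 and rrp1b. The change of npm2.S was 0.63, with 434.6 and 217.1 in NICD explants and 292.3, 185.2, 76.3 and 273.6 in untreated explants, so the groups overlapped. The difference of npm2.L minus npm2.S was 1.01 with an interval of -0.31 to 2.34 (adjusted p = 0.281 in limma). For rrp1b, a factor of the large subunit, the values were 0.35 (.L) and -0.46 (.S), neither past the test, and the difference was 0.81 (adjusted p = 0.111 in limma). The riok3 copies differed by -0.50, with an interval of -1.33 to 0.34.

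**Figure D5:**
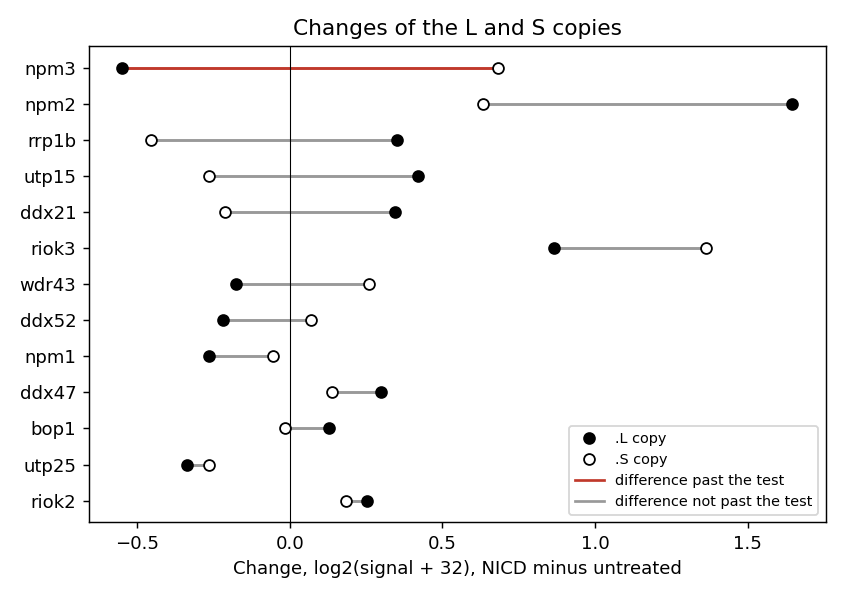
Change of the .L copy (filled) and the .S copy (open) of each of the 13 gene pairs (x axis, log2 scale, NICD minus untreated), ordered by the size of the difference. The line of npm3, from -0.55 to 0.68, is the 1 whose difference passed the test without a block, and both riok3 copies lie to the right at 0.86 and 1.36.

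Between the hybridization days, 2 of the 74 genes differed in the fit with both day and treatment, against 1.89% of tested symbols, so the share was near the background. They were wdr43.L, with an untreated mean of 444 on day 2 and 158 on day 1, and npm1.L. The median size of the day difference was 0.29 for the 74 genes and 0.25 for all tested symbols. For 38 of the 74 genes it was larger than the change with NICD. The share over all tested symbols was not counted, and their median size of change with NICD was 0.48, against 0.27 for the 74 genes. The change with NICD had the same sign on both days for 48 of the 74 genes, against 78.3% of tested symbols.

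Other ribosome biogenesis genes, from a list of names outside the selection rule, included calls in both directions. Of 81 tested, 9 rose, 6 fell and 66 did not pass (18.5% called, against 31.3% of tested symbols), with a median of 0.08. Of the 10 tested genes of the exosome, which trims rRNA ends, exosc9.L and exosc3.L rose and 8 did not pass. The 10 changes had a median of 0.30, with 8 positive and 2 negative. Among those not past the test were exosc7.S (0.57) and the 2 negative ones, exosc5.L (-0.28) and exosc8.S (-0.44). The signal of exosc9.L was 1417 and 1485 in NICD explants, against 580.7, 821.3, 608.9 and 530.8 in untreated explants, a change of 1.17 ± 0.24 (SE, adjusted p = 0.00433 in limma). That of exosc3.L changed by 1.19, that of rpp40.L, a protein of the ribonucleases P and MRP, by 1.17, and that of the helicase ddx51.L by 0.86. None of these groups overlapped. Without NICD 2 exosc9.L was the 1 gene still called higher, and ruvbl2.L and ruvbl2.S were the 2 still called lower.

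The largest falls were those of the paired ATPases ruvbl1 and ruvbl2, which help assemble small nucleolar ribonucleoproteins and also chromatin remodellers and, in other species, the dynein arms of cilia. The signal of ruvbl2.L was 1186 and 962.4 in NICD explants, against 3724, 3174, 3385 and 2538 in untreated explants, a change of -1.54 ± 0.23 (SE, adjusted p = 0.000706 in limma). That of ruvbl2.S was 1463 and 1738 in NICD explants, against 3875, 3669, 4900 and 4040 in untreated explants, and changed by -1.34. The copy ruvbl1.S changed by -0.96 and nvl.L, an ATPase of the large subunit pathway, by -0.84. The multiciliated cell markers fell in the same arrays (8 of 9 tested, the range of their summed signals given above), and their part in the ruvbl values was not tested.

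The transcription factor myc, a known activator of ribosome biogenesis genes, did not pass. The signal of myc.L was 997.6 and 968.2 in NICD explants, against 1279, 710.9, 1265 and 1039 in untreated explants, a change of -0.09 with an interval of -0.69 to 0.51. The change of myc.S was 0.19 with an interval of -0.48 to 0.86, and that of mycn.L -0.25. The myc.L and myc.S groups overlapped, and the probe sets of all 3 carry the suffix for shared probes. The related gene mycl.S, which was outside the list, was called higher, with a change of 1.14 (adjusted p = 0.006 in limma).

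Beside these, replication and division genes and ribosomal protein genes were read from the same fit. Of 17 replication and division symbols 10 rose and none fell, with a median of 0.86. The largest rise was that of cdc6.L, a licensing factor (2.14), and pcna.L, the sliding clamp of DNA polymerase, changed by 1.87. The other 7 did not pass, among them mcm4.L (0.57), rrm1.L (0.54) and the 1 negative value, mcm5.S (-0.26). Of 67 ribosomal protein symbols 7 fell and none rose (10.4% called, against 14.6% of tested symbols lower and 16.7% higher), with a median of -0.27 (-0.42 on day 1 and -0.13 on day 2). Of these 67 changes 56 were negative and 11 positive. At 5.41% called, the ribosome biogenesis genes had 42 positive and 32 negative changes, against 3198 and 2472 over all 5670 tested symbols. The medians of the ribosome biogenesis genes were 0.03 on day 1 and 0.07 on day 2. The difference between these lists was not tested.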

How the data were processed

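The authors deposited 1 MAS5 signal intensity for each probe set, scaled per array, per the submitters' processing notes and the values. The MAS5 version and the genome build are not given in the sources used here. The deposited instrument files hold other values, the settings used here for the day and the module, per the file headers. Of 15611 probe sets, 120 controls were left out. Symbols of 9304 probe sets came from the platform annotation, 9227 updated through a RefSeq table. No sequences were used.

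Probe sets above the 40th percentile of their array in at least 2 arrays were fitted as log2(signal + 32) with limma 3.58.1 (R 4.3.3, eBayes with a trend, 2-sided, no covariate), adjusted over all 10368. Homeolog differences were fitted likewise. Plots used Python 3.11.15 and matplotlib 3.10.9. The procedure was tested on simulated data.

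Genes were named by fixed rules: those past the test without overlap, the highest mean per role, the 3 pairs with the largest difference, up to 4 others per direction, and myc. Further genes were named after their values were seen. The members and lists were chosen with earlier results of these data known. Precision is limited by having 2 and 4 arrays. Where 1 NICD array was left out, the remaining one was taken to vary as the untreated arrays do. Alternatives covered normalization, pseudocount, filter, variance trend, blocks, arrays left out, thresholds and probe sets.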

Additional observations from a re-analysis of the deposited data

Results flagged for a closer look

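In 1 of the 74 genes an untreated array stood apart from the other untreated arrays by more than Dixon's 95% limit for 4 samples. The gnl2.L signal was 393.1 in untreated 2, against 528.4 to 538.3 in the other untreated arrays, a gap of 0.932 of the whole range. Chance marks about 1 in 20 such groups, and here 1.35% were marked. Both NICD values of gnl2.L, 341.7 and 320.9, lay below all of these.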

How the results depend on the processing

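Of 74 genes, the count higher was 4 and the count lower 0, and no named gene reversed a called direction under any alternative run. With the threshold at an adjusted p under 0.10, 7 were higher and 2 lower (39.9% of tested symbols called), and with the probe sets of each symbol averaged 1 (ncl.S) was lower. Leaving out 1 array at a time gave 0 to 6 higher and 0 to 2 lower, with 16% (without NICD 2) to 29.8% (without untreated 3) of tested symbols called. Of the other ribosome biogenesis genes (9 higher, 6 lower), 15 were higher with the day as a block and 15 at the looser threshold. Lower calls were added too, mak16.L and surf6.L in both settings and rexo4.S at the looser threshold. Those 2 settings called 40.2% and 39.9% of tested symbols, and a 2-fold minimum called 21.7%. A 2-fold minimum left 3 higher and 2 lower, and leaving out 1 array gave 1 to 8 higher (5 without untreated 3) and 2 to 5 lower. For pairs of copies (1 differing), the replicate block gave 2 and the day block 2, with 92 and 198 of all 719 pairs differing (17.1% without a block). In the day block the added pair was utp15 (adjusted p = 0.032 in limma), and leaving out 1 array gave 0 to 1. The labels do not say whether the replicate numbers pair the samples. Deviations of each array from its group mean, not signals, were correlated over probe sets. Those of NICD 1 correlated with those of untreated 1 at 0.20 and of untreated 2 at 0.23. The deviations of the 2 NICD arrays mirror each other. NICD 2 thus gave the same values with the opposite sign, so it adds no second check. NICD 1 shared its hybridization day with untreated 1 and untreated 2, so these correlations cannot show whether the numbers pair the samples. With the replicate number as a block 4 genes were higher and 0 lower. The calls of npm2.L, nob1.S and riok3.S held in 17 of 18 alternatives and that of riok3.L in 16, and the change of npm2.L ranged from 1.21 to 2.08. With a 2-fold minimum riok3.L was not called. The cause of these shifts was not tested. Low signals limit riok2.S and rrp1b.S, whose values lie near the filter, and riok3.S, whose values in untreated 1 and untreated 2 lie below it.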
